A study of Mus musculus with 9 samples.

Results

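The matrix-binding integrin subunits of cultured lung endothelium were examined in cells with and without endothelial deletion of the genes of the stress kinases JNK1 and JNK2. They are the 10 genes *Itga1*, *Itga2*, *Itga3*, *Itga5*, *Itga6*, *Itgav*, *Itgb1*, *Itgb3*, *Itgb4* and *Itgb5*, chosen by symbol out of 37104 loci, and each was found once. Levels were read from RNA-seq libraries of primary mouse lung endothelial cells (MLEC), with 3 libraries in each of 3 groups and lungs of 4 mice pooled for each library. All mice were C57BL/6J adults of 10 to 12 weeks that lack *Mapk10* (Jnk3-/-) in every cell, the controls included. ECtrl mice carry the endothelial Cre transgene with intact kinase genes (Cdh5-Cre+ Jnk1+/+ Jnk2+/+), EfCtrl mice carry LoxP alleles without the transgene (Cdh5-Cre- Jnk1LoxP/LoxP Jnk2LoxP/LoxP), and E3KO mice carry both (Cdh5-Cre+ Jnk1LoxP/LoxP Jnk2LoxP/LoxP), so that *Mapk8* (Jnk1) and *Mapk9* (Jnk2) are deleted where the *Cdh5* promoter drives Cre. The cells were grown on gelatin-coated plates and selected for ICAM2, so the values describe cultured cells and not the vessel wall.

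Integrins are cell surface receptors made of an α and a β chain, and the combination of chains sets which matrix protein is bound. In endothelium they anchor the cell to its basement membrane, and the fibronectin and vitronectin receptors are known for their part in sprouting. The β1 chain, encoded by *Itgb1*, is shared by the collagen, laminin and fibronectin receptors. The chains α5 (*Itga5*), αv (*Itgav*), β3 (*Itgb3*) and β5 (*Itgb5*) form receptors for ligands that carry the RGD peptide, α3 (*Itga3*), α6 (*Itga6*) and β4 (*Itgb4*) form laminin receptors, and α1 (*Itga1*) and α2 (*Itga2*) form collagen receptors. JNK phosphorylates c-Jun, a subunit of the transcription factor AP-1.

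No integrin subunit of the 10 passed the test in any comparison, and the order of their levels in the controls ran from *Itgb1* at 482 FPKM to *Itgb5* at 1.47 FPKM. FPKM scales the fragments of a gene by the length of its transcript and by the mapped fragments of the library, so levels of different genes can be compared. *Itgb5*, *Itga2* and *Itga1* had higher means in E3KO than in the controls, at unadjusted p-values under 0.05 only. *Itgb5* and *Itga2* were tested at all only because their E3KO means reached the required group mean of 2 FPKM. The difference of *Itgb4* was the lowest of the 10 and did not reach that level.

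The promoters of *Itga1*, *Itga2* and *Itgb5* are shown because these genes had the smallest p-values among the 10 and because AP-1 is the best known nuclear target of JNK. Each run is the 250 bases upstream of the RefSeq transcription start on GRCm38.p6 (mm10), 5′ to 3′ on the strand of the gene, with GC boxes (GGGCGG or its reverse complement CCGCCC) in capitals. *Itga1* is on the minus strand at chr13:115101965-115102214, *Itga2* on the minus strand at chr13:114932101-114932350 and *Itgb5* on the plus strand at chr16:33829415-33829664.
Itga1: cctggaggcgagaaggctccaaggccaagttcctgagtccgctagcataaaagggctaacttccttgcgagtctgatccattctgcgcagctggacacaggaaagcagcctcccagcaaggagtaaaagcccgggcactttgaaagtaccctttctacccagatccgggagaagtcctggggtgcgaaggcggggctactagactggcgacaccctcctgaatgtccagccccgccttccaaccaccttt
Itga2: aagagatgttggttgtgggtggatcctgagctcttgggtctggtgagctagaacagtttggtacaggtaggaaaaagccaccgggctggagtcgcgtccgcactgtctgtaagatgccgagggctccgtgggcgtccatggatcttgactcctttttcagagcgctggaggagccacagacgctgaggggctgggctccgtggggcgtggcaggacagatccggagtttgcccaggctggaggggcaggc
Itgb5: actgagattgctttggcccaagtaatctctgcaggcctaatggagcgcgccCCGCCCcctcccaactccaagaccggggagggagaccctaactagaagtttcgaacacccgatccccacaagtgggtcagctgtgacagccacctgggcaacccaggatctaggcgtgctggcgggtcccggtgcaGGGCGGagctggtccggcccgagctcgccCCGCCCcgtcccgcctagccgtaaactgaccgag
The printed stretch of *Itgb5* held 3 GC boxes and 18 CG dinucleotides. Those of *Itga1* and *Itga2* held no GC box and 10 and 12 CG dinucleotides. The AP-1 heptamer TGACTCA (or TGAGTCA on the other strand) and the octamer TGACGTCA were searched for on both strands in windows of 300 bases, 250 before and 50 after the start. RefSeq windows were at hand for 7 of the 10 genes, 8 windows in all because *Itga3* has 2, and both motifs were in 0 of 8. Among all 32851 windows of this length, 5.2% held the heptamer, 1.79% the octamer and 35.7% a GC box, so the heptamer and the octamer are uncommon in such windows in general.

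The targeted genes checked the labels. *Mapk9* was at 27.6, 35.1 and 20.7 FPKM in E3KO, below all 6 controls (42.7 to 50.9). *Mapk8* was at 8.77 and 4.65 FPKM in E3KO replicates 2 and 3 but at 20.7 in the library labelled E3KO replicate 1, above all 6 controls (14.0 to 17.9). In that library 96.4% of the FPKM sum lay in 10 symbols, so many results are also given without it. Endothelial markers were present in every library (summed level of 12 markers 3412 to 4423 FPKM). Of these, *Emcn* (endomucin) rose from 973 ± 105 FPKM in the controls (SD, n = 6) to 1495 ± 54.7 in E3KO (SD, n = 3; adjusted p = 0.0261) and *Cldn5* (claudin-5) fell from 217 ± 42.5 to 114 ± 15.6 (0.0322). Neither passed without the library labelled E3KO replicate 1 (0.0540 and 0.0704). Of 8 lymphatic markers 3 fell and 0 rose against the mean of controls, where 4.8% of all tested genes passed. Their median log2 difference was -0.64, where that of all tested genes was -0.08. *Prox1*, the transcription factor of lymphatic identity, fell from 134 ± 15.4 to 67.3 ± 10.8 FPKM (adjusted p = 0.0131), *Reln* from 66.9 ± 11.02 to 33.6 ± 1.04 (0.0167) and *Ccl21a* from 4.99 ± 2.67 to 0.773 ± 0.223 (0.0381). *Ccl21a* did not pass without the library labelled E3KO replicate 1 (0.0638). Without E3KO replicate 3 *Prox1* (0.0746), *Reln* (0.0803) and *Ccl21a* (0.121) all lost the call. The most abundant marker of that list, *Lyve1*, was at 1689 ± 185 and 1605 ± 110 (adjusted p = 0.717). The part of a lower lymphatic signal in the integrin values was not tested. Markers of leukocytes summed to 83.9 to 178 in ECtrl, 179 to 294 in EfCtrl and 232 to 364 in E3KO, with *Ptprc* at 1.6 FPKM or less in every library. The smooth muscle, pericyte and fibroblast list, most of it *Thy1*, summed to 272 to 401 in the controls and 117 to 153 in E3KO. *Thy1* fell from 276 ± 63.5 to 123.3 ± 25.4 (adjusted p = 0.0289), the 1 gene of 6 tested that passed, where 4.8% of all genes did. It passed in 8 of 14 alternatives, and not without E3KO replicate 2 (0.0606) or 3 (0.106). At an unadjusted p under 0.05 in limma 4 of the 6 fell and 0 rose, where 23.8% of all genes lay under that value. *Dcn* was at 4.49 ± 1.83 and 4.17 ± 3.19 (adjusted p = 0.776). Within the controls *Thy1* was highest in replicate 1 of ECtrl and EfCtrl (330 and 375 FPKM), where *Acta2* was lowest (4.31 and 11.6). The sum of this list therefore need not follow smooth muscle or fibroblasts. Epithelial markers summed to 51.8 FPKM in the library labelled E3KO replicate 1, of which 46.2 was *Scgb1a1*, a product of airway club cells, and to 2.55 to 6.05 in the other 8 libraries. In bulk RNA fewer cells of a type and less RNA per cell cannot be told apart.

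In the controls, *Itgb1* (chr8:128685653-128733200, plus strand, as for all coordinates on mm10) was the most abundant subunit at 482 ± 49.5 FPKM (SD, n = 6). *Itga6* (chr2:71745615-71858416, plus strand) followed at 198 ± 16.9 and *Itgb3* (chr11:104607999-104670476, plus strand) at 53.3 ± 6.97. Within each control library these 3 kept their order and lay above the next gene, although the ranges of *Itgb3* and *Itga3* overlapped between libraries. In all 6 control libraries *Itgb1* was above *Itga6* (by 2.43-fold as a geometric mean over libraries), *Itga6* above *Itgb3* (3.73-fold) and *Itgb3* above *Itga3* (1.46-fold). The exact sign-flip test over 6 libraries gave p = 0.03125, the smallest it allows, for each of these steps. Over the 9 neighbours in the order the adjusted p was 0.05625, just over the threshold. The authors' group FPKM of *Itga6* were lower, at 133 in ECtrl and 131 in EfCtrl. The size of the folds on both sides of *Itga6* is therefore uncertain.

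*Itga3* (chr11:95044473-95076801, minus strand), *Itga5* (chr15:103344288-103366763, minus strand) and *Itgav* (chr2:83724396-83806916, plus strand) formed a middle group at 36.7 ± 5.92, 34.0 ± 6.25 and 30.4 ± 4.29 FPKM (SD, n = 6). Neighbours in this group did not differ beyond their spread. *Itga3* was above *Itga5* in 5 of 6 controls (exact sign-flip p = 0.0938) and *Itga5* above *Itgav* in 4 of 6 (exact p = 0.125). A step of 4.66-fold as a geometric mean, with the same direction in 6 of 6 controls, separated *Itgav* from the low group.

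The low group began with *Itgb4* (chr11:115974708-116008412, plus strand) at 6.53 ± 1.51 FPKM and *Itga1* (chr13:114958078-115101964, minus strand) at 4.71 ± 0.672 (SD, n = 6), which were in this order in 5 of 6 controls (exact p = 0.0625). *Itga1* exceeded *Itga2* (chr13:114835915-114932041, minus strand), the other collagen-binding α chain, in 6 of 6 controls, by 2.63-fold as a geometric mean. *Itga2* at 1.82 ± 0.602 FPKM and *Itgb5* (chr16:33829664-33949153, plus strand) at 1.47 ± 0.525 did not differ beyond their spread (4 of 6, exact p = 0.219). ECtrl and EfCtrl taken alone gave the same order of means. In E3KO *Itgav* came before *Itga5* and *Itga3*, and *Itga1* before *Itgb4*, changes inside the middle group and between *Itgb4* and *Itga1*, which the controls had not resolved.

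**Figure D1:**
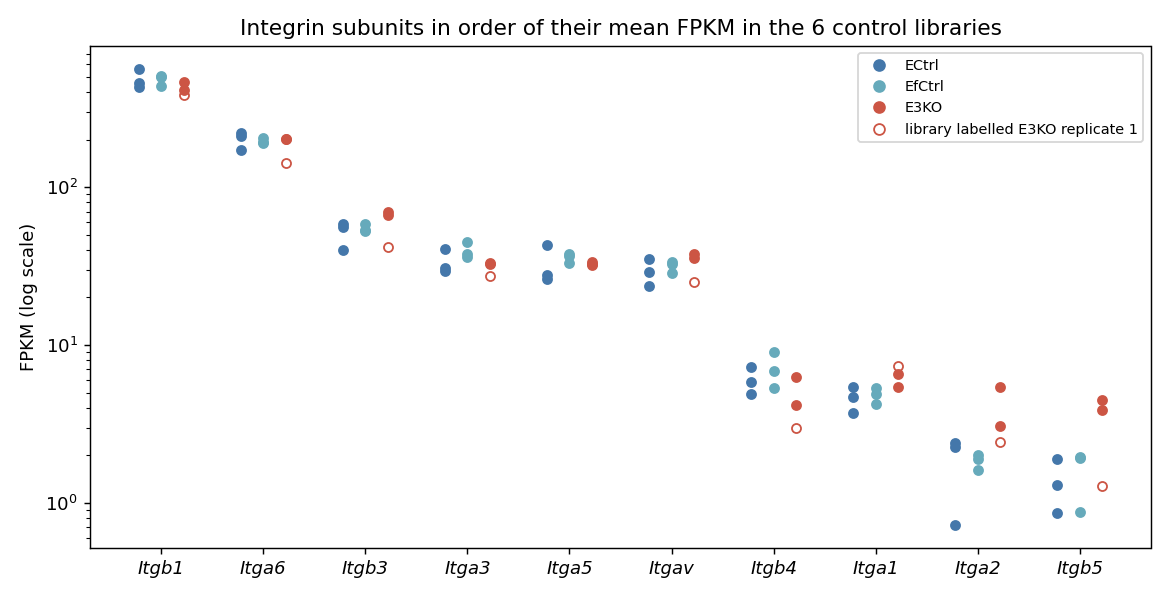
FPKM of the 10 integrin subunits on a log scale, ordered from left to right by their mean in the 6 controls, with a point for each library coloured by group and an open point for the library labelled E3KO replicate 1. *Itgb1* and *Itga6* stand apart at the top, *Itga3*, *Itga5* and *Itgav* overlap between 23.6 and 45.2 FPKM, a range that the lowest points of *Itgb3* (39.97 and 41.9) enter, and the other 4 genes lie under 10 FPKM.

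The comparison of E3KO with each control group asked whether deletion of *Mapk8* and *Mapk9* in cells that already lack JNK3 changes the integrin set. Transcripts of both genes were still measured in E3KO, at means of 11.4 and 27.8 FPKM against 16.0 and 46.5 in the controls. Against ECtrl, which shares the Cre transgene, 0 of 10 genes passed an adjusted p of 0.05 in limma, where 2.25% of the 10605 tested genes did. Against EfCtrl, which shares the LoxP alleles, 0 of 10 passed where 0.952% of all genes did. Against the mean of both controls 0 of 10 passed where 4.8% of all genes did. With shares this small, a count of 0 among 10 genes is near the background. At an unadjusted p under 0.05 the counts were 2, 0 and 3 of 10, where 20.1%, 17.7% and 23.8% of all genes lay under that value. The counts of 2 and 3 include *Itga2*, and that of 3 also *Itgb5*. Both genes reached the filter of 2 FPKM through the E3KO mean alone, so these counts are not independent of the filter.

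The median log2 difference of the 10 genes was 0.10 against ECtrl, -0.04 against EfCtrl and 0.03 against the mean of controls, where the medians of all tested genes were -0.08 in each. Against the mean of controls it was 0.15 without the library labelled E3KO replicate 1 and 0.10 when each library was centred on its median. With all 9 libraries 5 genes were higher and 5 lower. Between the controls, EfCtrl against ECtrl, 0 of 10 integrin genes passed and 0 of 10605 genes overall (0 integrin genes and 195 genes, 1.84%, at an unadjusted p under 0.05 in limma). The E3KO comparisons share their E3KO libraries and are not independent of each other.

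The common β1 chain had the following levels. *Itgb1* was at 433, 562 and 457 FPKM in ECtrl, at 437, 495 and 507 in EfCtrl and at 381, 460 and 412 in E3KO. The groups overlapped through E3KO replicate 2, and E3KO replicates 1 and 3 lay below all 6 controls. The log2 difference from the mean of controls was -0.20 ± 0.12 (SE), with an adjusted p of 0.326 and a 95% interval of -0.47 to 0.07. This difference was -0.14 (adjusted p = 0.558) without the library labelled E3KO replicate 1. Fold changes here are on the log2(FPKM + 1) scale, which understates the change of genes with low values.

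Among the RGD-binding receptors *Itgb5* differed most. It was at 0.859, 1.89 and 1.30 FPKM in ECtrl, at 0.879, 1.96 and 1.92 in EfCtrl and at 1.28, 4.46 and 3.90 in E3KO. E3KO replicates 2 and 3 were above every control, while the library labelled E3KO replicate 1 lay inside the control range. The log2 difference from the mean of controls was 0.70 ± 0.30 (SE), with an adjusted p of 0.207 and an interval of 0.01 to 1.40, and the exact permutation test of 3 against 6 libraries gave p = 0.0833. Without the library labelled E3KO replicate 1 the difference was 1.10 ± 0.22 and the adjusted p 0.0447, where 3.58% of the genes tested in that fit passed. *Itgb5* entered the tested genes through its E3KO mean alone, since its control means were 1.35 and 1.59 FPKM, under the filter of 2. With that library left out and no filter, an alternative chosen after seeing the data, the adjusted p was 0.0849 and the call was lost. No other member passed under any alternative tried. The exact test of 2 against 6 libraries then gave 0.0357, the smallest it allows. Summed leukocyte markers were also highest in E3KO replicates 2 and 3 (333 and 364 FPKM, against 232 in replicate 1). Most of that sum was *Lyz2* (133, 212 and 221 FPKM in E3KO). *Itgb2*, *Itgam* and *Cd14* of the list were highest in E3KO replicate 1 instead (8.03, 1.98 and 35.5 FPKM). EfCtrl replicate 2 summed to 294 FPKM, above E3KO replicate 1, with *Itgb5* at 1.96. Of that list *Cd68* was at 17.6, 40.3 and 50.6 FPKM in E3KO and did not pass with all libraries (adjusted p = 0.165). It alone of the list passed without the library labelled E3KO replicate 1 (log2 difference 1.24, adjusted p = 0.0261). The part of leukocytes in the *Itgb5* result was not tested.

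The other β partner of αv, β3, is also the β chain of the platelet receptor. *Itgb3* was at 39.97, 58.8 and 56.2 FPKM in ECtrl, at 53.0, 58.5 and 53.5 in EfCtrl and at 41.9, 66.4 and 69.6 in E3KO. E3KO replicates 2 and 3 were again above all controls and replicate 1 was low, as was ECtrl replicate 1. The log2 difference was 0.13 ± 0.19 (SE) with an adjusted p of 0.702, and 0.36 with an adjusted p of 0.217 without the library labelled E3KO replicate 1. Platelet markers were near 0, with sums of 1.95 to 4.80 FPKM over 5 genes in all 9 libraries.

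The shared partner of both, *Itgav*, was at 23.6, 28.8 and 35.3 FPKM in ECtrl, at 28.4, 32.7 and 33.7 in EfCtrl and at 25.2, 35.6 and 37.8 in E3KO. These ranges overlapped and the log2 difference from the mean of controls was 0.10 ± 0.17 (SE), with an adjusted p of 0.741. This difference was 0.27 (adjusted p = 0.336) without the library labelled E3KO replicate 1. *Itga5*, the α chain of the main fibronectin receptor, was at 26.3, 27.8 and 42.9 FPKM in ECtrl, at 37.5, 36.6 and 32.8 in EfCtrl and at 31.95, 32.6 and 33.6 in E3KO. All 3 E3KO libraries lay inside the range of ECtrl, and the log2 difference was -0.04 ± 0.15 (SE), with an adjusted p of 0.906 and an interval of -0.39 to 0.32. Its sign turned when each library was centred on its median (0.036).

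Within a library the ratio of 2 genes is not moved by the scaling of that library. The ratio of *Itgb3* to *Itgb5*, the alternative partners of αv, was 46.5, 31.0 and 43.3 in ECtrl, 60.3, 29.9 and 27.8 in EfCtrl and 32.8, 14.9 and 17.8 in E3KO. E3KO replicates 2 and 3 were below every control and replicate 1 was among them. The log2 ratio differed by -0.85 (exact permutation p = 0.0595, adjusted over 4 ratios 0.238), and by -1.16 without the library labelled E3KO replicate 1 (exact p = 0.0357). The ratio of *Itga5* to *Itgav* was 0.966 to 1.32 in the controls and 0.889 to 1.27 in E3KO (exact p = 0.369). Its log2 difference went from -0.14 to -0.30 without the library labelled E3KO replicate 1 (exact p = 0.0714).

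Of the laminin receptor chains, *Itga6* was at 171, 210 and 219 FPKM in ECtrl, at 191, 204 and 194 in EfCtrl and at 143, 201 and 201 in E3KO. E3KO replicates 2 and 3 lay among the controls, and the library labelled E3KO replicate 1 below all of them. The log2 difference was -0.14 ± 0.14 (SE) with an adjusted p of 0.570, and 0.02 without that library. The annotation places 4 predicted genes over this locus, so how fragments were divided there is uncertain. The authors' group FPKM were 133, 131 and 132 in ECtrl, EfCtrl and E3KO, under the means of single libraries (200, 196 and 181).

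*Itga3*, the α chain of α3β1, was at 30.9, 29.5 and 40.6 FPKM in ECtrl, at 45.2, 37.8 and 36.0 in EfCtrl and at 27.5, 32.7 and 33.0 in E3KO. All 3 E3KO libraries were below all 3 EfCtrl libraries, a pattern shared by 19.8% of all tested genes, but they overlapped ECtrl. The log2 difference was -0.34 ± 0.16 (SE) against EfCtrl (adjusted p = 0.306) and -0.10 ± 0.16 against ECtrl (adjusted p = 0.738). EfCtrl itself was above ECtrl by 0.24 ± 0.16 (adjusted p = 1).

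*Itgb4*, which pairs with α6 in hemidesmosomes of epithelia, was at 5.82, 4.89 and 7.29 FPKM in ECtrl, at 8.99, 5.32 and 6.86 in EfCtrl and at 2.99, 4.19 and 6.28 in E3KO. E3KO replicates 1 and 2 were below every control and replicate 3 lay among them. The log2 difference from the mean of controls was -0.48 ± 0.22 (SE), with an adjusted p of 0.234 and an exact permutation p of 0.0833. Without the library labelled E3KO replicate 1 it was -0.27 (adjusted p = 0.509). That library had the lowest *Itgb4* level and the highest epithelial marker sum, and the part of such cells in its value was not tested. The ratio of *Itga6* to *Itgb4* was 21.3 to 42.9 in the controls and 31.97 to 47.9 in E3KO (exact p = 0.131).

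Both collagen-binding α chains had higher means in E3KO. *Itga1* was at 3.70, 5.45 and 4.66 FPKM in ECtrl, at 4.89, 4.22 and 5.35 in EfCtrl and at 7.31, 5.42 and 6.59 in E3KO. The E3KO libraries were above all EfCtrl libraries, as for 9.37% of all genes, and E3KO replicate 2 was just under ECtrl replicate 2. The log2 difference from the mean of controls was 0.38 ± 0.14 (SE), with an adjusted p of 0.144 and an interval of 0.07 to 0.69, and the exact permutation p was 0.0357. Without the library labelled E3KO replicate 1 the difference was 0.30 and the exact p 0.107. The row of *Pelo*, a ribosome rescue factor whose gene lies within *Itga1*, covers the same locus and was at 9.94 ± 1.76 FPKM in the controls (SD, n = 6) and 11.5 ± 2.92 in E3KO (SD, n = 3). Whether fragments of *Pelo* entered the *Itga1* value was not tested.

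*Itga2* was at 0.726, 2.26 and 2.40 FPKM in ECtrl, at 1.61, 1.90 and 2.01 in EfCtrl and at 2.43, 3.09 and 5.40 in E3KO. It was the 1 member of 10 with all 3 E3KO libraries above all 6 controls, as 5.18% of all tested genes were, and the gap was narrow (2.43 against 2.40). The log2 difference was 0.70 ± 0.26 (SE), with an adjusted p of 0.160 and an interval of 0.10 to 1.30, and the exact permutation p was 0.0357. It was 0.44 (adjusted p = 0.336) without E3KO replicate 3 and 0.89 (adjusted p = 0.127, exact p = 0.0714) without the library labelled E3KO replicate 1. *Itga2* and *Itgb5* passed the filter of a group mean of 2 FPKM through E3KO alone, the control means of *Itga2* being 1.80 and 1.84. With no filter their adjusted p was 0.258 and 0.325. The ratio of *Itga1* to *Itga2* was 1.94 to 5.09 in the controls and 1.22 to 3.01 in E3KO (exact p = 0.214). Its log2 difference went from -0.52 to -0.86 without the library labelled E3KO replicate 1 (exact p = 0.0714).

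**Figure D2:**
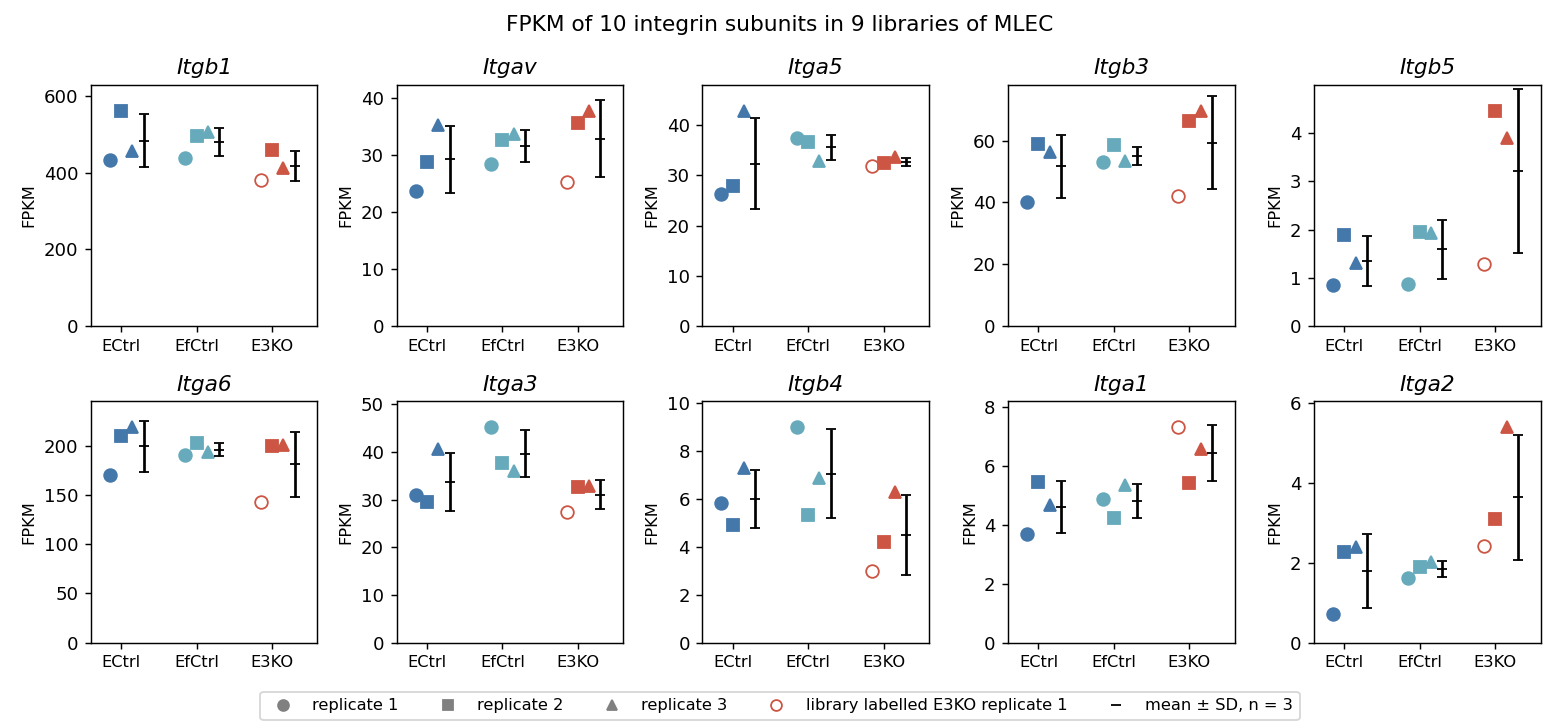
FPKM of each integrin subunit in the 9 libraries, a panel for each gene with its own axis from 0, a symbol for each replicate number and bars for the mean ± SD of 3 libraries. The 3 E3KO points clear all controls only for *Itga2*, and in *Itgb5* and *Itgb3* the open point of the library labelled E3KO replicate 1 lies far under the other 2 E3KO points.

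**Figure D3:**
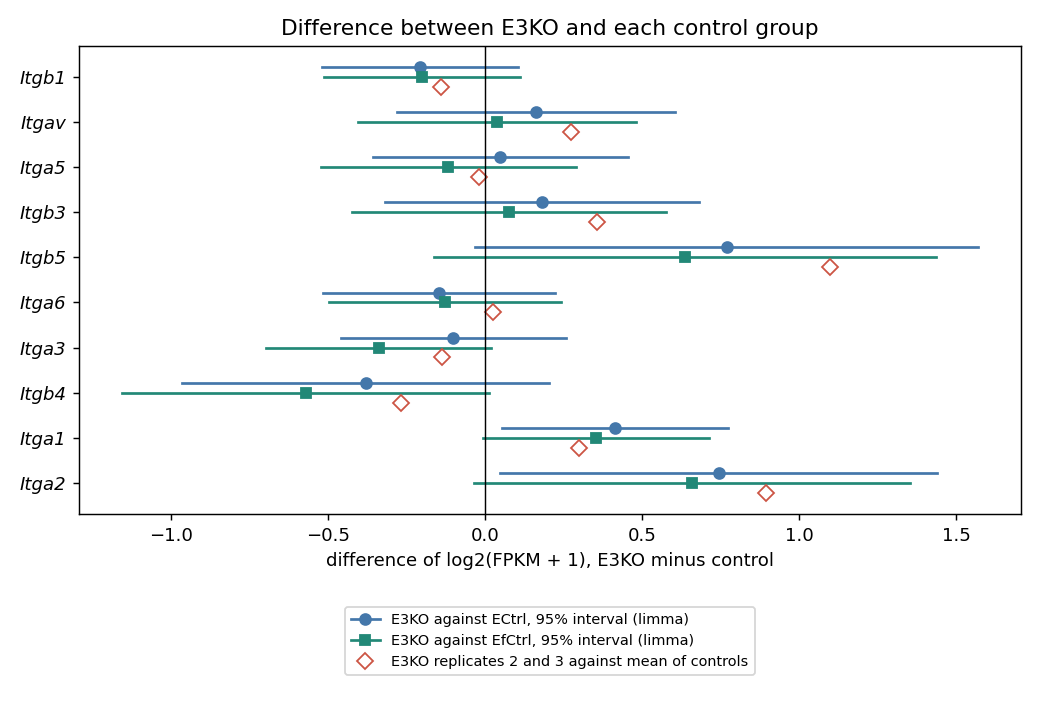
Difference of log2(FPKM + 1) between E3KO and ECtrl (circles) and between E3KO and EfCtrl (squares) with 95% intervals from limma, and between E3KO replicates 2 and 3 and the mean of controls (open diamonds). The intervals against ECtrl leave out 0 for *Itga1* and *Itga2*, and none of the 20 differences passed the adjusted threshold.

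Some of the 10 genes varied together between libraries of a group. Library number 1 was the lowest of its group in all 3 groups for 6 of 10 genes (*Itga2*, *Itga6*, *Itgav*, *Itgb1*, *Itgb3* and *Itgb5*), where 6.85% of all tested genes had this pattern. The numbers mark separate isolations and do not pair libraries, and this count was looked at after the values were seen. Within groups, over the same 9 libraries and with shared scaling, the correlation of log2 values was 0.98 between *Itga6* and *Itgb3*, 0.93 between *Itga6* and *Itgav* and 0.87 between *Itgb3* and *Itgb5*. *Itga3* and *Itga5* had a correlation of 0.83, and *Itgb1* and *Itga3* of -0.29. *Itga1* stood aside, with correlations of -0.22 to 0.43 with the other 9. Over all 9 libraries the tested genes most like *Itgb1* were *Man1a* (Pearson r = 0.943), *Chml* (0.936) and *Bach2* (0.930), and those most like *Itga1* were *Ppm1l* (0.960), *Heph* (0.959) and *Prex2* (0.947). These values describe 9 libraries and carry no test.

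Of 16 other integrin subunits 5 were measured above the filter, and 0 passed against the mean of controls, where 4.8% of all genes passed. A count of 0 among 5 is near that share. Their median log2 difference was -0.24, where that of all tested genes was -0.08. *Itgb2*, the β chain of leukocyte integrins, was at 0.762, 3.79 and 2.59 FPKM in ECtrl, at 5.31, 6.53 and 4.14 in EfCtrl and at 8.03, 5.58 and 7.58 in E3KO. Its log2 difference was 0.86 ± 0.30 (SE) with an adjusted p of 0.137. Its leukocyte partner *Itgax* had a difference of 0.67 ± 0.21 (adjusted p = 0.108). EfCtrl lay between ECtrl and E3KO for both, the same sequence as the summed leukocyte markers, a list that holds *Itgb2*. *Itga2b*, the platelet partner of β3, was at 1.8 FPKM or less.

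Among the proteins that activate integrins or tie them to actin, 29 of 35 were tested, of which 2 fell and 0 rose against the mean of controls, where 4.8% of all genes passed. The median log2 difference was -0.19, and it was -0.11 without the library labelled E3KO replicate 1 and -0.12 when each library was centred on its median. *Cav1*, the caveola coat protein that associates with integrins, was at 674, 725 and 683 FPKM in ECtrl, at 660, 613 and 669 in EfCtrl and at 415, 410 and 421 in E3KO. Its groups were far apart, and the log2 difference was -0.69 ± 0.08 (SE), with an adjusted p of 0.0109. *Lims1*, which encodes PINCH1, a partner of integrin-linked kinase, was at 271, 262 and 257 FPKM in ECtrl, at 251, 249 and 261 in EfCtrl and at 154, 191 and 165 in E3KO. It fell by 0.61 ± 0.09 on the log2 scale (adjusted p = 0.0162), again with no overlap. Against ECtrl and EfCtrl separately *Cav1* passed (0.0188 and 0.0326), and *Lims1* passed against ECtrl (0.0309) but not against EfCtrl (0.0522). Without the library labelled E3KO replicate 1 both passed (0.0235 for *Cav1* and 0.0297 for *Lims1*). Without E3KO replicate 3 neither did (0.0672 and 0.0803), nor *Lims1* without EfCtrl replicate 3 (0.0541).

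Of 26 matrix ligands of these receptors 19 were tested, of which 2 rose and 1 fell against the mean of controls, where 4.8% of all genes passed. The median log2 difference was -0.05, and its sign turned without the library labelled E3KO replicate 1 (0.078) and when each library was centred on its median (0.025). *Ctgf*, a secreted matricellular protein bound by αv and β1 integrins, was at 150, 195 and 119 FPKM in ECtrl, at 142, 138 and 149 in EfCtrl and at 316, 236 and 264 in E3KO. It rose by 0.87 ± 0.16 on the log2 scale (adjusted p = 0.0270). Its relative *Cyr61* ranged from 32.1 to 40.8 FPKM over the controls and from 44.9 to 58.6 over E3KO, and rose by 0.56 ± 0.12 (adjusted p = 0.0385). *Fbn1*, which encodes the microfibril protein fibrillin-1, an RGD ligand, ranged from 7.01 to 11.3 FPKM over the controls and from 3.55 to 3.78 over E3KO, and fell by 1.06 ± 0.13 (adjusted p = 0.0110).

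E3KO and control libraries did not overlap for *Ctgf*, *Cyr61* and *Fbn1*. Against ECtrl and EfCtrl separately *Fbn1* passed (adjusted p = 0.0280 and 0.0316), while *Ctgf* (0.0624 and 0.0678) and *Cyr61* (0.0908 and 0.0774) passed against neither. Without the library labelled E3KO replicate 1 *Fbn1* still passed (adjusted p = 0.0261), *Ctgf* (0.0610) and *Cyr61* (0.0741) did not, and *Nid1*, the basement membrane linker nidogen-1, did (log2 difference 0.80, adjusted p = 0.0266). *Fbn1* did not pass without E3KO replicate 3 (0.0672). *Ctgf* and *Cyr61* also lost the call with any 1 of the EfCtrl libraries, ECtrl replicate 1 or E3KO replicate 3 left out, and *Cyr61* without ECtrl replicate 3 (adjusted p-values up to 0.0948 and 0.127). *Fbn1* is also a product of fibroblasts and smooth muscle, whose summed marker list, most of it *Thy1*, was lower in E3KO. That sum is a poor guide to such cells, since *Thy1* was highest and *Acta2* lowest in replicate 1 of both control groups. The part of such cells in the *Fbn1* value was not tested.

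**Figure D4:**
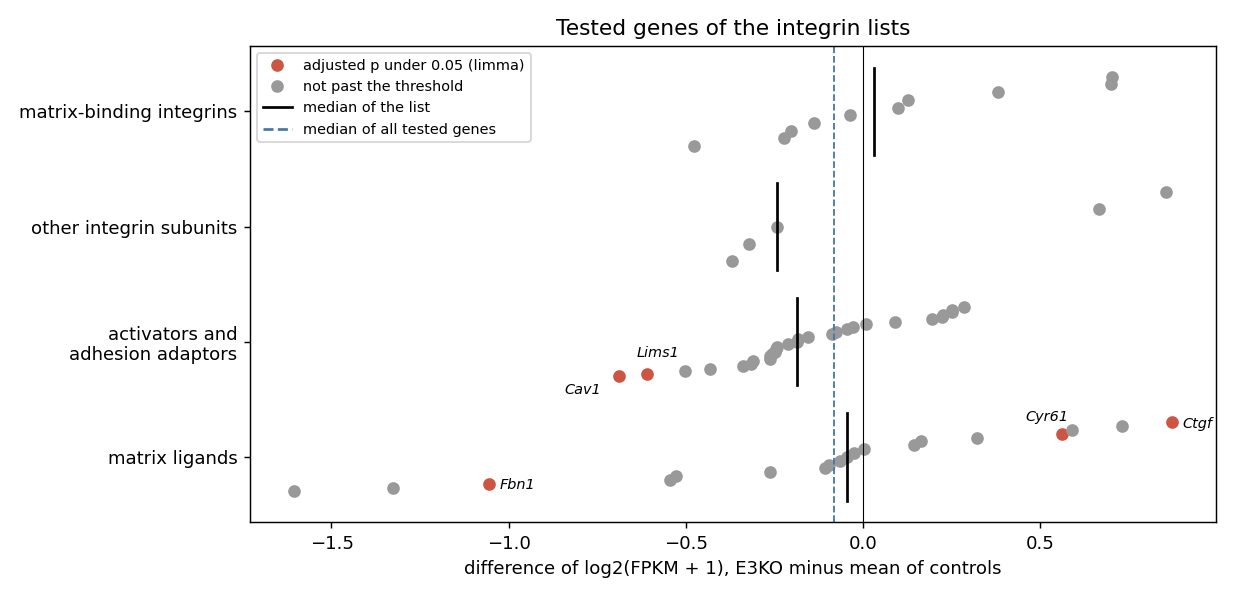
Difference of log2(FPKM + 1) between E3KO and the mean of controls for each tested gene of 4 lists, with red points for an adjusted p under 0.05, black bars for list medians and a dashed line for the median of all tested genes. The 10 matrix-binding integrins spread from -0.48 to 0.70 with no red point, while *Cav1*, *Lims1*, *Fbn1*, *Ctgf* and *Cyr61* are red.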

How the data were processed

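RNA-seq of 9 MLEC libraries was analysed. The authors aligned paired 40-base reads to mm10 with TopHat. They deposited FPKM from Cufflinks 1.0.3, 1 value for each library, and group FPKM from Cuffdiff, which enter no test. Their fold changes, p-values and q-values are also in the tables and were not used. FPKM hold no fragment counts, so depth is unknown and no counting interval was made. Symbols naming several loci (3749 loci) were left out. Groups and replicate numbers came from the labels. A model of the 3 groups was fitted to log2(FPKM + 1) by limma 3.58.1 under R 4.3.3. It covered the 10605 genes whose mean reached 2 FPKM in any group, with Benjamini-Hochberg adjustment. A contrast with the mean of controls was added to those with each group. The fit was tested on simulated data. Single genes and ratios were tested by exact two-sided permutation on log2(FPKM + 0.1), where the smallest p is 0.0119 over 84 splits (3 against 3 libraries cannot go below 0.1), and orders by exact sign flips over the 6 controls, where it is 0.03125. Named genes are the 10 members, genes called in the lists of other subunits, adaptors and ligands against the mean of controls (or the 2 with the smallest p), and the 3 genes most like *Itgb1* and the member with the smallest p. Other named genes (*Nid1*, *Pelo*, *Itga2b* and the marker genes) were chosen after their values were seen. Members and lists were chosen with earlier results of these data known.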

Additional observations from a re-analysis of the deposited data

Results flagged for a closer look

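In a group of 4 to 10 libraries, a value whose gap to the nearest of the others was large against the range of the group (Dixon's 95% limit) was looked for in 14 series of control values, the 10 genes and 4 ratios. There were 2, both in ECtrl replicate 1, and chance alone gives about 1 in 20 series. *Itgb3* was lowest there at 39.97 FPKM, with the next control at 53.0 (gap over range 0.692). The ratio of *Itga1* to *Itga2* was highest there at 5.09, with the next at 3.03 (gap over range 0.654).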

How the results depend on the processing

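Of 570 values of the 10 genes under alternatives, 543 kept their direction and their side of the threshold, 26 changed sign and 1 passed the threshold. The integrin count was 0 in each comparison under every alternative, except 0 to 1 against the mean of controls with single libraries left out (1, *Itgb5* at 1.10, without E3KO replicate 1). The count over all genes depended on the libraries far more: leaving out 1 gave 0 to 215 genes against ECtrl, 1 to 218 against EfCtrl, 9 to 408 against the mean of controls (9 without E3KO replicate 3) and 0 to 4 between the controls, where the fit to all 9 gave 239, 101, 509 and 0. With no filter 95 and 17 genes passed against ECtrl and EfCtrl. With the replicate number as a block the counts were 1, 1 and 202, and those of the 10 integrins stayed at 0. Against the mean of controls the block took the adjusted p of *Itgb5* from 0.207 to 0.0789 and of *Itga2* from 0.160 to 0.104. That of *Itga1* went the other way, from 0.144 to 0.221. Same-numbered libraries deviated together over all tested genes with correlations of -0.04 to 0.12, so the numbers were not taken as pairs. The block moved *Ctgf* and *Cyr61* to adjusted p-values of 0.0705 and 0.0814. Centring each library changed the calls against the mean of controls from 163 higher and 346 lower to 209 higher and 268 lower. Exact p-values under 0.05 were found for 2 genes (*Itga1*, *Itga2*) and for 1 to 2 with a library left out, and 5 to 6 steps of the level order held. The genes were not always the same. Without E3KO replicate 1 only *Itgb5* was under 0.05 (exact p = 0.0357), with *Itga1* at 0.107 and *Itga2* at 0.0714. The 4 ratios gave 0 calls throughout.

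The 26 sign changes were in values near 0. On centring, *Itga5* against the mean of controls went from -0.035 to 0.036. The others came from leaving out a library, over which the values ranged as follows. Against ECtrl the ranges were -0.078 to 0.26 for *Itga5*, -0.19 to 0.037 for *Itga3* and -0.26 to 0.014 for *Itga6*. Against EfCtrl they were -0.057 to 0.30 for *Itgb3*, -0.21 to 0.033 for *Itga6* and -0.071 to 0.21 for *Itgav*. Against the mean of controls they were -0.099 to 0.072 for *Itga5*, -0.0034 to 0.36 for *Itgb3*, -0.22 to 0.024 for *Itga6* and -0.0091 to 0.27 for *Itgav*. Between the controls they were -0.065 to 0.21 for *Itgb3*, -0.23 to 0.26 for *Itga2*, -0.059 to 0.17 for *Itga1*, -0.026 to 0.35 for *Itgb5*, -0.016 to 0.26 for *Itgav*, -0.13 to 0.051 for *Itga6* and -0.081 to 0.11 for *Itgb1*. The cause was not tested. With 3 libraries a group and levels of 1 to 5 FPKM for *Itga2* and *Itgb5*, their intervals span more than 1 on the log2 scale.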
